A study of Mus musculus with 6 samples.

Results

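The genes examined here encode 6 small leucine-rich proteoglycans of the extracellular matrix, Dcn (decorin), Bgn (biglycan), Lum (lumican), Fmod (fibromodulin), Prelp (prolargin) and Ogn (osteoglycin). They were taken by symbol from a table of 21983 genes, which held all 6. Whole livers of 6 C57BL/6 mice were measured by RNA sequencing, 3 per genotype. The 3 livers labelled Lrat-Cre; Prmt1f/f (mice 49, 82 and 88, called knockout livers here) carried a floxed allele of Prmt1, an arginine methyltransferase, with a Cre recombinase driven from Lrat. The 3 livers labelled Prmt1f/f (mice 42, 83 and 90, called control livers) carried the floxed allele without Cre. Every mouse had drunk thioacetamide (TAA), a hepatotoxin that scars the liver, at 400 mg/L for 16 weeks, so no value here measures the effect of TAA. The labels give an age of 10 weeks without saying to which time point it refers. Lrat marks hepatic stellate cells in liver, and all other liver cells are also part of these samples. Because the controls had no Cre, an effect of Cre itself and one of Prmt1 loss cannot be told apart.

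Small leucine-rich proteoglycans are secreted proteins whose core is a curved stack of leucine-rich repeats. Most carry sulfated sugar chains, chondroitin or dermatan sulfate on decorin and biglycan and keratan sulfate on lumican and fibromodulin. They bind collagen and set the width and spacing of fibrils, and decorin and biglycan also hold growth factors such as TGF-beta. In scarred liver they are made mainly by stellate cells and fibroblasts. The design asks how their transcripts differ when Prmt1 is targeted in Lrat-expressing cells of fibrotic liver.

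Most of these genes lie beside relatives in the genome (GENCODE annotation of GRCm38, the assembly that mm10 names). Dcn (chromosome 10, 97479609 to 97518143, plus strand) is followed 46985 bases on by Lum (97565128 to 97572703, plus strand), and Lum by the family member Kera. Prelp (chromosome 1, 133910304 to 133921414, minus strand) lies between the family member Optc and Fmod (134037254 to 134048277, plus strand). Ogn (chromosome 13, 49608046 to 49624501, plus strand) follows the family member Omd, 15224 bases away. Bgn is on chromosome X (73483602 to 73495933, plus strand). Ogn overlaps Cenpp, a gene on the other strand with 1 to 11 counts per liver. The strand setting of the counting is not known, so reads in the overlap cannot be told apart. Prelp overlaps the antisense gene Gm15851, which has no row in the table used here, and the same limit holds for it.

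RefSeq promoter windows (GRCm38.p6, 250 bases before to 50 after the start) were matched for 4 of the 6 genes, and none was matched for Dcn and Lum. The windows of Bgn and Ogn are shown to contrast the member with the highest level per length and one of the 2 far lower ones. The windows lie at chrX:73483351-73483650 and chr13:49607765-49608064, both on the plus strand, and capitals mark motif matches.
Bgn promoter: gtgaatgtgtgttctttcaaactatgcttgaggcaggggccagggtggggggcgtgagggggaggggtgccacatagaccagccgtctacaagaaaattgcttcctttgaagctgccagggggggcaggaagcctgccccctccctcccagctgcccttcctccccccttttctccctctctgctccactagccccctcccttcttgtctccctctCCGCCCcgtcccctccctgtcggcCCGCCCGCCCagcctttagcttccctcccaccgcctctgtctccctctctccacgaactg
Ogn promoter: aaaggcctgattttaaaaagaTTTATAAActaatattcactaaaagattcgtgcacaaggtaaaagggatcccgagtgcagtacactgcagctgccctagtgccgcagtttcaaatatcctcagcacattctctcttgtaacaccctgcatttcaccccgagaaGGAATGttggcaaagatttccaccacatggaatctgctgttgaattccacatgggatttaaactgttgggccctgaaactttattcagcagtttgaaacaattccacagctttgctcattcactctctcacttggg
Both strands were searched for 5 short motifs. For the GC box the letters were GGGCGG. The Bgn window is 63.7% G and C and held 3 GC boxes, of which 2 overlap each other, and no other motif. Among 32851 RefSeq windows of this length 35.7% held at least 1. The Ogn window is 42.3% G and C, against a median of 52.7% over all windows. It held 1 match to the TEAD motif, searched as GGAATG, at base -86, and 14.7% of all windows held one. It also held 2 overlapping matches to the TATA box, searched as TATAAA, which 13.6% of all windows held. The core of the SMAD site, searched as CAGAC, had 2 matches in the Fmod window and 3 in that of Prelp, and 49.6% of all windows held it. The AP-1 motif, searched as TGANTCA, was in none of the 4 windows and in 7.81% of all. These matches describe the letters and were not tested as binding sites.

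Total counts per liver ranged from 13303884 to 16462278. Prmt1 itself gives only a limited check of the labels, because whole liver was measured. It was at 38.9, 44.4 and 49.8 CPM (counts as a rate of the library after TMM scaling) in control mice 42, 83 and 90. In knockout mice 49, 82 and 88 it was at 35.8, 24.7 and 25.8 CPM. All knockout livers lay under all control livers, as in 7.95% of all genes tested, and mouse 49 lay closest to the controls. The log2 fold change, knockout over control throughout, came to -0.62 for Prmt1 (SE 0.20; edgeR adjusted p 0.347). Over the whole table edgeR called 0 of 13153 genes at an adjusted p of 0.05 (0.0%), with 1448 genes (11.0%) under 0.05 before adjustment, and DESeq2 called 238 of the 13146 to which it gave an adjusted p (1.81%).

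All 6 proteoglycan genes had lower mean levels in knockout livers, and none passed the test. Their log2 fold changes ran from -0.18 (Prelp) to -1.10 (Lum) with a median of -0.45, against a median of -0.02 over all genes tested. A negative fold change alone was common, being found in 52.7% of all genes. Of the 6 genes 0 had an unadjusted p under 0.05 in edgeR, where 11.0% of all genes did (5.95% lower and 5.06% higher in knockout livers). In 0 of 6 did the knockout livers lie apart from the control livers, against 16.9% of all genes tested (7.95% with all knockout livers under the controls and 8.94% with all above). With a term for mouse number in the edgeR model (42 and 49 against those over 80), Dcn (-0.65), Lum (-1.39) and Bgn (-0.60) had an unadjusted p of 0.0291, 0.0123 and 0.0409, as 15.0% of all genes then had one under 0.05. Lum alone did so in edgeR with scaling by total counts (0.0432), where 1590 of 13153 genes did. It also did so in DESeq2 (0.0395), where 1669 of 13146 genes did. Without knockout mouse 88, Lum and Bgn did so in edgeR (0.0154 and 0.0492), where 997 of 13377 genes did. After adjustment none of the members passed in these fits, and DESeq2 and limma-voom called 0 of the 6 at an adjusted p of 0.05. All 6 genes passed the filter on low counts, the lowest value of any of them being 24 counts in a liver. Whole liver was measured, so fewer cells that make a transcript and less transcript per cell cannot be told apart.

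**Figure D1:**
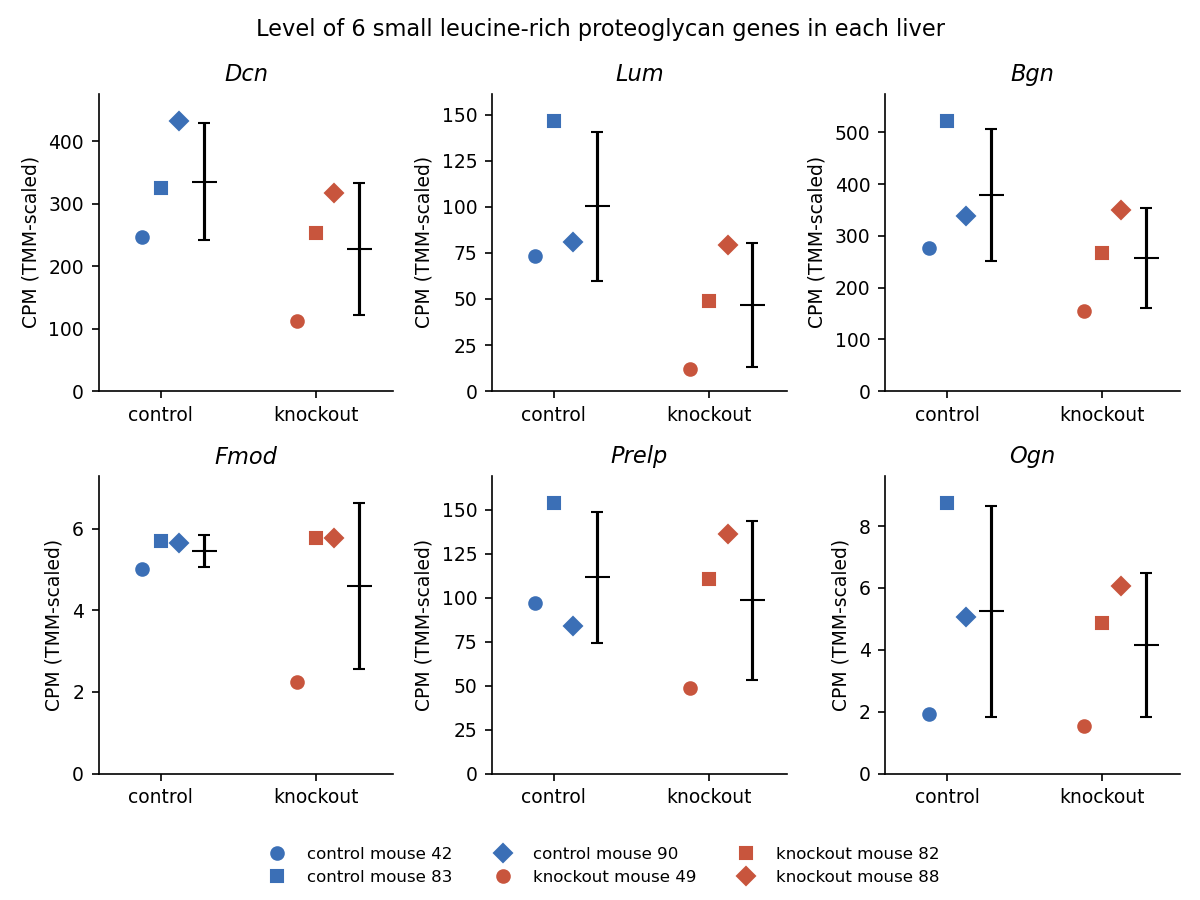
Level of each gene in each liver, in CPM scaled by TMM (vertical axis, from 0), for control livers in blue and knockout livers in red; bars beside the points give the mean and SD of 3 livers. Knockout mouse 49 is the lowest liver in all 6 panels, and the groups overlap in every panel.

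Among the proteoglycans that carry chondroitin or dermatan sulfate, decorin varied within each genotype by about as much as between them. Dcn, whose protein binds collagen fibrils and TGF-beta, was at 247.0, 325.9 and 433.1 CPM in control mice 42, 83 and 90. In knockout mice 49, 82 and 88 it was at 111.8, 252.6 and 317.8 CPM. Knockout mice 82 and 88 lay above control mouse 42, and mouse 49 lay under all the others. The means were 335.3 ± 93.4 against 227.4 ± 105.3 CPM (SD, n = 3 each). For Dcn edgeR gave a log2 fold change of -0.56 with an SE of 0.38 and a 95% interval from -1.42 to 0.30 (adjusted p 0.597). The two-sided exact permutation p was 0.3. For all 6 genes the smallest p this permutation test can give with 3 livers against 3 is 0.1.

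Biglycan, the closest relative of decorin here and, as a free protein, a ligand of Toll-like receptors, had a difference of the same size. Bgn was at 275.8, 523 and 338.7 CPM in control mice 42, 83 and 90 and at 155.5, 266.3 and 349.2 CPM in knockout mice 49, 82 and 88. Knockout mouse 88 was above 2 of the control livers, and control mouse 83 was far above the rest. The means were 379.2 ± 128.5 against 257.0 ± 97.2 CPM (SD, n = 3 each). For Bgn edgeR gave a log2 fold change of -0.56 with an SE of 0.34 and an interval from -1.35 to 0.22 (adjusted p 0.563), and the exact permutation p was 0.3.

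Of the proteoglycans of the lumican branch, Lum differed most. Its protein regulates collagen fibril assembly. Lum was at 73.1, 146.8 and 81.1 CPM in control mice 42, 83 and 90. In knockout mice it was at 12.1 (mouse 49), 48.9 (mouse 82) and 79.3 CPM (mouse 88). Control mouse 83 was high, knockout mouse 49 was lowest, and the groups overlapped only because mouse 88 lay above control mouse 42. From the highest to the lowest liver Lum spanned 12.1-fold, against 2.56-fold for Fmod and 3.16-fold for Prelp. The means were 100.3 ± 40.5 against 46.8 ± 33.6 CPM (SD, n = 3 each), and the knockout mean was 46.6% of the control mean. The log2 fold change of Lum in edgeR was -1.10 with an SE of 0.56 and an interval from -2.39 to 0.18. Its adjusted p was 0.495 in edgeR, 0.360 in DESeq2 and 0.457 in limma-voom. The exact permutation p was 0.2. The interval holds both no difference and a more than 4-fold lower level, a log2 of -2.

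Fmod and Prelp, the other genes of that branch, did not separate the genotypes. Fibromodulin binds the same collagen fibrils as lumican. Fmod was at 5.0, 5.69 and 5.64 CPM in control mice 42, 83 and 90 and at 2.25, 5.77 and 5.76 CPM in knockout mice 49, 82 and 88. These rest on 35 to 112 counts per liver. In mouse 49 the exact Poisson 95% interval ran from 1.57 to 3.13 CPM, under the lowest bound of any other liver (3.93 CPM, mouse 42). Such intervals cover counting error only. Fmod had a log2 fold change of -0.25 with an SE of 0.38 and an interval from -1.11 to 0.61 (edgeR adjusted p 0.816; exact permutation p 1.0). Prolargin, which links collagen to basement membranes, had the smallest difference. Prelp was at 96.9, 153.8 and 84.2 CPM in control mice 42, 83 and 90 and at 48.6, 110.9 and 136.4 CPM in knockout mice 49, 82 and 88. Knockout mice 82 and 88 were above 2 of the control livers. Prelp had a log2 fold change of -0.18 with an SE of 0.38 and an interval from -1.03 to 0.67 (edgeR adjusted p 0.871; exact permutation p 0.8).

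Ogn, the gene of osteoglycin (mimecan), belongs to a further branch of the family and was low and variable. It was at 1.93, 8.74 and 5.07 CPM in control mice 42, 83 and 90 and at 1.55, 4.87 and 6.05 CPM in knockout mice 49, 82 and 88. The lowest control and the lowest knockout liver, with 29 and 24 counts, had overlapping counting intervals of 1.29 to 2.78 and 0.990 to 2.30 CPM. Controls alone therefore spanned nearly the whole range. Ogn had a log2 fold change of -0.35 with an SE of 0.60 and an interval from -1.72 to 1.02 (edgeR adjusted p 0.840; exact permutation p 0.6).

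The same livers were extreme in most of the genes. Knockout mouse 49 was the lowest of the 6 livers in 6 of 6 genes, where it was lowest in 19.0% of all genes tested. Control mouse 83 was highest in 4 of 6 (Bgn, Lum, Prelp and Ogn), against 17.3% of all genes. In those 4 genes both livers held their place, which was so in 7.96% of all genes. Dcn was highest in control mouse 90 and Fmod in knockout mouse 82. Without mouse 49 the log2 fold change was 0.085 for Fmod, 0.15 for Prelp and 0.052 for Ogn, each with the sign turned. In that fit Dcn was at -0.23, Bgn at -0.30 and Lum at -0.64, so 3 of the 6 genes kept a negative value. Without mouse 83 Prelp was at 0.12 and Ogn at 0.25, while Bgn was at -0.26 and Lum at -0.72. Without knockout mouse 88 the values were further from 0, at -0.91 for Dcn, -0.88 for Bgn, -1.76 for Lum, -0.48 for Fmod, -0.53 for Prelp and -0.77 for Ogn. Without control mouse 42 Ogn was at -0.74. With the 4 mice numbered over 80 alone Fmod was at 0.027 and Prelp at 0.057. None of these fits gave any of the 6 genes an adjusted p under 0.05.

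Per unit of length (FPKM, scaled counts per kilobase of exon), biglycan and decorin were the most abundant members. Over all 6 livers Bgn was at 52.2 ± 19.99, Dcn at 48.2 ± 18.3, Lum at 30.1 ± 18.1 and Prelp at 29.1 ± 10.4 FPKM (SD, n = 6). Ogn (1.83 ± 1.05) and Fmod (1.52 ± 0.42 FPKM) were far lower. Over all livers Bgn and Dcn did not differ beyond their spread, nor did Ogn and Fmod. Lum and Prelp stood in a different order in the genotypes: Lum was at 29.9, 59.98 and 33.1 FPKM in control mice 42, 83 and 90, where Prelp was at 26.8, 42.5 and 23.3. In knockout mice 49, 82 and 88 Lum was at 4.95, 19.99 and 32.4 FPKM and Prelp at 13.4, 30.7 and 37.7. By FPKM Lum was thus above Prelp in every control liver and under it in every knockout liver. By CPM, which takes no account of length, Lum was under Prelp in every liver of both genotypes. In mouse 83 Lum was also above Dcn by FPKM (55.8). By the mean over all livers Bgn came first with either length, but its lead over Dcn depends on the length used. With its longest transcript (2666 bases) in place of all annotated exon bases (6099) Bgn was at 119.3 ± 45.7 FPKM, against 60.0 ± 22.8 for Dcn. The 6 genes together summed to 146.5, 249.2 and 189.8 FPKM in control mice 42, 83 and 90. In knockout mice 49, 82 and 88 the sum was 64.3, 141.2 and 185.9 FPKM. Knockout mouse 88 was above control mouse 42, and the knockout mean was 66.9% of the control mean. It was 83.8% without mouse 49 and 52.7% without mouse 88. Prelp made up 18.3%, 17.1% and 12.3% of the summed FPKM in control livers and 20.9%, 21.7% and 20.3% in knockout livers, higher in every one of the latter. The share of Lum was 20.4%, 24.1% and 17.5% against 7.69%, 14.2% and 17.4%, where the lowest control and the highest knockout liver nearly met. With the longest transcript as length the Lum shares overlapped, at 11.85% in control mouse 90 and 11.86% in knockout mouse 88. The shares of Prelp and Lum are parts of the same sum and depend on each other. They were not tested, and there is no such share over all genes to set beside them.

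**Figure D2:**
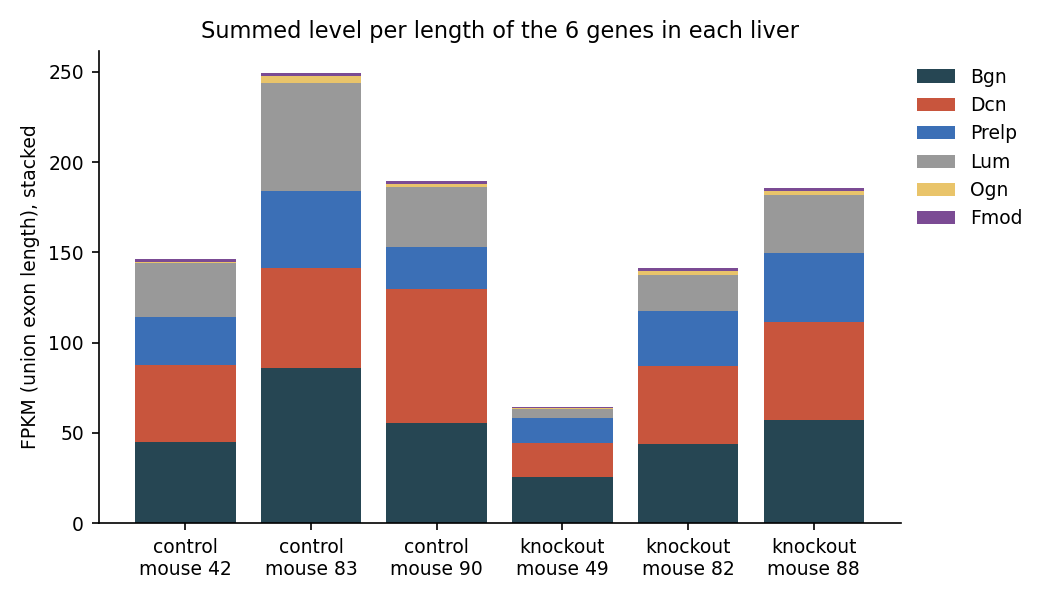
Summed level of the 6 genes in each liver, stacked by gene, in FPKM over all annotated exon bases (vertical axis, from 0). The sum is 64.3 in knockout mouse 49 and 249.2 in control mouse 83, and Bgn and Dcn make up the larger part of every bar.

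Lumican was low relative to other members in knockout livers, a pattern picked out after the values were seen. All ratios between genes were taken from CPM. The log2 ratio of Lum to Prelp was -0.41, -0.07 and -0.05 in control mice 42, 83 and 90, and -2.01, -1.18 and -0.78 in knockout mice 49, 82 and 88. All knockout livers lay under all controls, and the group means differed by -1.15. The ratio of Lum to Bgn was between -2.06 and -1.83 in controls and between -3.68 and -2.14 in knockout livers, a difference of means of -0.82. The ratios to Fmod (-1.04) and Ogn (-1.10) were also apart between the genotypes, narrowly so for Fmod. Lum over Fmod was 3.84 in control mouse 90 and 3.78 in knockout mouse 88, on 69 and 80 Fmod counts. Lum over Ogn was 3.999 and 3.71 in these mice, on 62 and 84 Ogn counts. Counting error was not carried into the ratios. The ratio to Dcn was not apart: Dcn over Lum was at 1.76, 1.15 and 2.42 in control livers and 3.21, 2.37 and 2.003 in knockout livers. Of all genes tested, 1.95% had a ratio to Prelp that was lower in every knockout liver than in every control liver, and 1.03% a ratio to Bgn, 1.39% to Fmod, 0.715% to Ogn and 0.684% to Dcn. The 4 ratios share Lum and are not independent. Of the 15 pairs of members these 4 alone did not overlap between the genotypes, and no test was made of them.

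Collagens were listed as partners of these proteoglycans in the matrix. Of 12 such genes tested, 10 had a negative log2 fold change, the median was -0.90, and 8 were lower at an unadjusted p under 0.05, where 5.95% of all genes were. None passed adjustment in edgeR, and DESeq2 called 3, all lower, where it called 1.81% of all genes in either direction. Col14a1, a fibril-associated collagen, was at 101.9, 104.4 and 122.8 CPM in the control mice and 28.3, 46.01 and 42.1 CPM in the knockout mice, a log2 fold change of -1.50 (SE 0.22). Col16a1, of the same kind, was at -1.51 (SE 0.26). Col3a1 (-1.58, SE 0.33) and Col1a1 (-1.10, SE 0.33), which form the fibrils, and Col1a2 (-0.81, SE 0.35) had separate groups too. Others lay near 0 or above it, with Col6a1 at -0.10, Col6a2 at 0.017 and Col5a3 at 0.53 (SE 0.30). In that fit the edgeR adjusted p was 0.170, 0.211, 0.227, 0.324 and 0.445 for Col14a1, Col16a1, Col3a1, Col1a1 and Col1a2.

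**Figure D3:**
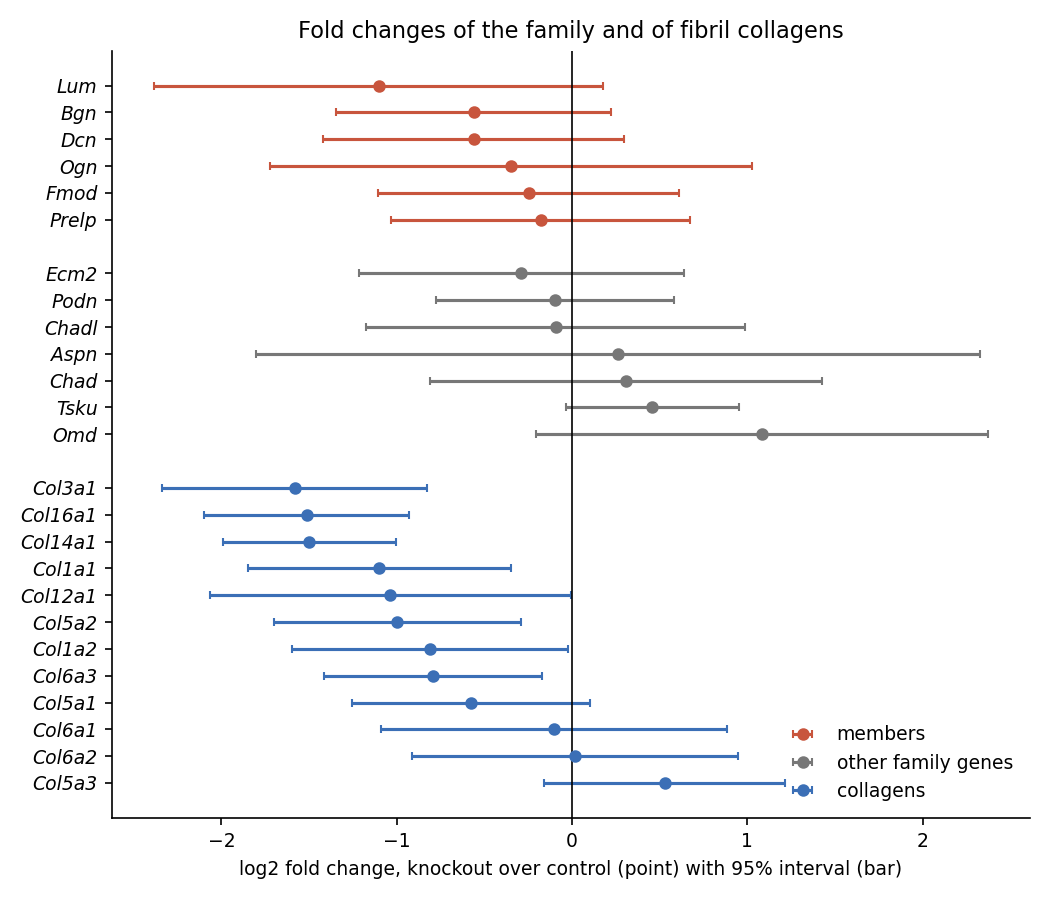
Log2 fold change, knockout over control, with its 95% interval (horizontal axis) for the 6 members, 7 other genes of the family and 12 collagens. Every interval of the proteoglycan family includes 0, while those of 8 collagens lie under 0.

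Set against Col1a1 in the same liver, most members were relatively more abundant in knockout livers, as most genes were. The log2 ratio of Prelp to Col1a1 was -1.51, -0.83 and -0.97 in control mice 42, 83 and 90 and -0.43, -0.42 and 0.19 in knockout mice 49, 82 and 88, a difference of means of 0.88. That of Fmod was between -5.79 and -4.87 in controls and between -4.86 and -4.37 in knockout livers, a difference of 0.77. These 2 of the 6 members had all knockout livers above all controls. The share was 53.4% over all genes tested, because Col1a1 itself was lower in every knockout liver. The differences were 0.49 for Dcn, 0.55 for Bgn, 0.84 for Ogn and -0.26 for Lum, with overlapping groups. Relative to Lrat, the stellate cell gene whose promoter drives Cre, 3 of the 6 were higher in every knockout liver. These were Bgn (0.52), Fmod (0.74) and Prelp (0.85), and the share over all genes was 63.0%. For Bgn the groups nearly met, at 2.390 in knockout mouse 82 and 2.384 in control mouse 83. Fmod was at -3.54 in knockout mouse 49 and -3.58 in control mouse 90. Relative to Col3a1, Bgn (1.05), Fmod (1.27) and Prelp (1.38) were higher in every knockout liver, against 74.8% of all genes. Lrat was at 92.1, 100.2 and 67.3 CPM in the control mice and 26.1, 50.8 and 46.8 CPM in the knockout mice (-1.07, SE 0.27, edgeR adjusted p 0.297).

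**Figure D4:**
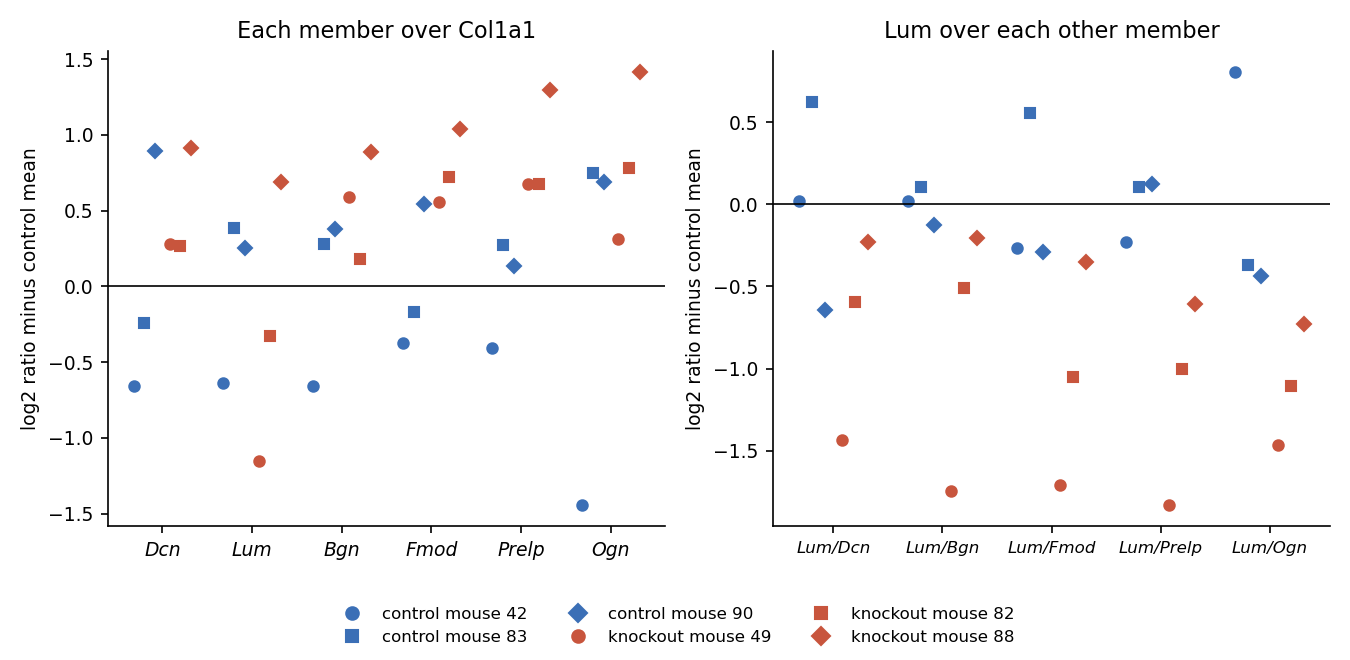
Log2 ratio of each member to Col1a1 (left) and of Lum to each other member (right) in each liver, minus the mean of the 3 control livers; blue points are control and red points knockout livers. Prelp and Fmod over Col1a1 are higher in all knockout livers, for Fmod by a very narrow margin. Lum over Bgn, Fmod, Prelp and Ogn is lower in all knockout livers, narrowly so over Bgn and Fmod.

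Other genes of the family were mostly scarce. Of 12 listed, all in the table, 7 were tested, and Kera and Epyc, known from cornea and cartilage, had no count in any liver. Of the 7, 3 had negative and 4 positive fold changes (median 0.26), and 0 had an unadjusted p under 0.05. Tsku (tsukushi), which liver secretes, was the most abundant by CPM, at 244.2, 173.7 and 179.6 in control livers and 282.3, 302.7 and 235.7 in knockout livers. Control mouse 42 was above knockout mouse 88, and the log2 fold change was 0.46 (SE 0.22, adjusted p of 0.464 in edgeR). Omd, the neighbour of Ogn, was at 1.13, 0.51 and 0.74 CPM in the controls and 0.71, 2.40 and 1.95 CPM in the knockouts, on 9 to 32 counts (1.08, SE 0.57, adjusted p of 0.502 in edgeR). Aspn (asporin), also of that cluster, had 2 to 35 counts per liver (0.26, SE 0.91).

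Enzymes that build the sugar chains were listed by kind of chain. Of 22 genes of chondroitin and dermatan sulfate synthesis tested, 13 had negative fold changes (median -0.20) and 0 had an unadjusted p under 0.05. Of these 22, 2 (9.09%) were lower in every knockout liver, near the 7.95% of all genes tested. One of them was B4galt7, which adds the first galactose of the linker (-0.49, SE 0.23, edgeR unadjusted p 0.0665). Chst11, a chondroitin sulfotransferase, was at -0.81 (SE 0.42). Of 4 keratan sulfate genes tested, 2 were lower at an unadjusted p under 0.05 (5.95% of all genes) and in every knockout liver (7.95%), the sulfotransferase Chst2 (-0.74, SE 0.32) and the galactosyltransferase B4galt4 (-0.88, SE 0.39). None passed adjustment in edgeR or DESeq2.

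Receptors and growth factors that these proteins bind differed in both directions. Of 23 tested, 15 had negative fold changes (median -0.25), with 5 lower and 1 higher at an unadjusted p under 0.05 (5.95% and 5.06% of all genes) and 0 after adjustment. The gene that was higher was Lrp1 (0.81, SE 0.35). Egfr (0.74, SE 0.33, edgeR unadjusted p 0.0518) was higher in every knockout liver, as 8.94% of all genes were. Cd44, a hyaluronan receptor, was at 18.4, 43.4 and 50.1 CPM in the controls and 19.6, 18.1 and 19.1 CPM in the knockouts (-0.97, SE 0.33). Cd14, a co-receptor of the Toll-like receptors that bind biglycan, was at 14.5, 43.9 and 36.3 CPM in the controls and 13.9, 14.99 and 17.0 CPM in the knockouts (-1.05, SE 0.36). In both genes control mouse 42 lay among the knockout livers. A further list held proteases known to cleave members of the family and Pcolce, an enhancer of one of them that is no protease itself. Of its 15 genes tested 13 had negative fold changes (median -0.71), and 5, Pcolce among them, were lower at an unadjusted p under 0.05 (5.95% of all genes), with Mmp12 (-0.80, SE 0.24) and Adamts1 (-0.71, SE 0.26) having the smallest p. Of 17 other proteoglycan genes 10 had negative fold changes (median -0.15). Cd74 (-1.72, SE 0.67), the invariant chain of MHC class II, and Esm1 (-1.22, SE 0.49), an endothelial proteoglycan, were the 2 lower at an unadjusted p under 0.05, against 5.95% of all genes. After adjustment 0 of either list passed in edgeR or DESeq2.

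All 14 stellate cell markers had counts in every liver, and 13 of 14 had a negative fold change (median -0.54), all but Pdgfrb (0.028). At an unadjusted p under 0.05, 4 were lower (5.95% of all genes) and none passed adjustment in edgeR. Their summed level was 602.5, 690.6 and 715.3 CPM in control mice 42, 83 and 90 and 305.3, 501.5 and 524.9 CPM in knockout mice 49, 82 and 88. Of the stellate markers Vipr1 (-0.83, SE 0.17) and Reln (-1.01, SE 0.24) had the smallest p. DESeq2, which called 1.81% of all genes in either direction, called 4 stellate markers, Lrat, Vipr1, Reln and Rgs5, all lower. All 14 portal fibroblast markers had counts in every liver as well, and 10 of 13 tested had a negative fold change (median -0.64), with Dpt (-2.42, SE 0.40) and Eln (-1.93, SE 0.48) having the smallest p. At an unadjusted p under 0.05, 4 were lower and 1 higher (5.95% and 5.06% of all genes), and DESeq2 called Dpt and Eln. The gene that was higher, in every knockout liver, was the scarce Clec3b, at 0.13, 0.56 and 0.082 CPM in control and 1.03, 2.02 and 1.30 CPM in knockout mice (2.33, SE 0.68, edgeR adjusted p 0.323). Their sum ran from 225.8 to 309.1 CPM in control and from 85.8 to 189.6 CPM in knockout livers. In both sums mouse 49 was the lowest liver, as in the 6 proteoglycan genes. Their part in the result was not tested.

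Thy1, a portal fibroblast marker, was at 1.47 CPM in control mouse 42 and 2.06 CPM in knockout mouse 49, its 2 lowest livers (-0.49, SE 0.59). Markers of other cell types differed in both directions. Genes listed as smooth muscle markers summed to between 146.3 and 184.9 CPM in control and between 103.3 and 183.6 CPM in knockout livers. Their median log2 fold change was -0.17, with Myh11 at -0.16 (SE 0.39). Tagln at -1.04 (SE 0.20) and Acta2 at -1.29 (SE 0.29) lay far under that median. Whole liver does not show which cells made the Tagln and Acta2 transcripts, so they are not read as a smooth muscle result. Mesothelial markers summed to between 238.1 and 392.9 against between 250.8 and 398.3 CPM, most of which was Slc9a3r1. The other 8 mesothelial markers summed to 13.9, 22.4 and 12.1 CPM in control mice 42, 83 and 90 and 4.83, 10.5 and 18.0 CPM in knockout mice 49, 82 and 88, overlapping and lowest in mouse 49. Among them Upk1b and Muc16 had no count in at least 1 liver, Msln was at -1.25 (SE 1.04) and Gpm6a at -0.66 (SE 0.43). Bile duct markers summed to between 555.6 and 1355 CPM in control and between 308.0 and 780.3 CPM in knockout livers, highest in mouse 83 and lowest in mouse 49, with Cldn4 (-1.60, SE 0.54) and Muc1 (-1.22, SE 0.42) leading by p. Neutrophil (median -1.90; Csf3r -1.01, S100a9 -2.17) and lymphocyte markers (median -1.33; Cd79a -1.41) were lower in the median, with 6 of 6 and 8 of 8 tested genes negative. Neutrophil markers summed to 19.1, 53.6 and 84.7 CPM in control mice 42, 83 and 90. In knockout mice 49, 82 and 88 that sum was 11.85, 18.1 and 17.0 CPM. Lymphocyte markers summed to 7.73, 16.4 and 28.95 CPM in the controls and 9.14, 8.47 and 10.4 CPM in the knockouts, lowest in control mouse 42. Endothelial (median -0.03; Plvap -0.75, Lyve1 -0.92) and resident macrophage markers (median 0.14; Cd163 2.01, Marco 1.47) lay near all genes, and hepatocyte markers higher (median 0.48; Tdo2 1.03, Cps1 1.04), with Alb at 0.10 (SE 0.36). None of these genes passed an adjusted p of 0.05 in edgeR. DESeq2 called Tagln and Acta2 of the smooth muscle list, S100a8 and S100a9 of the neutrophil list (all lower) and Tdo2 and Cps1 of the hepatocyte list (higher). The part of these lists in the result was not tested.

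The genes whose profile over the 6 livers was most like each member's were found by the root mean square difference of log2 CPM, each gene centred on its own mean. For Dcn these were Rcn3 (0.107), a collagen chaperone of the endoplasmic reticulum, Gsn (0.13), which is also on the portal fibroblast list, and Tmem159 (0.15). For Bgn they were Sfxn3 (0.062), Mxra7 (0.070) and the caveola gene Cavin1 (0.072). Fmod was closest to Clmp (0.069), Tm4sf1 (0.11) and Gal3st1 (0.12), and Prelp to Dzip1l (0.061), Bicc1 (0.081) and the receptor gene Erbb2 (0.096). Lum and Ogn had no such close match: the nearest were Gpnmb (0.25), Fhl2 (0.32) and Emp1 (0.33) for Lum, and Plxdc2 (0.20), Mgat4a (0.23) and the stellate transcription factor gene Tcf21 (0.25) for Ogn. Among the members the nearest pair was Bgn and Prelp (0.25), and the farthest Lum and Fmod (0.72). Each likeness rests on 6 values per gene, with mouse 49 the lowest for every member, and is given as a description.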

How the data were processed

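RNA of whole liver was sequenced in 6 mice. The authors deposited raw counts per gene symbol in a single table; Trimmomatic, FastQC, STAR and HTSeq, with mm10 as the build, were used per the submitters' processing notes. Versions, annotation and strand setting: not given in the sources used here. Mice were matched to columns by the number in their titles, and numbers are not shared between genotypes. The table held 0 rows that name no gene.

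Counts were filtered with filterByExpr (13153 genes kept), scaled (TMM) and fitted in edgeR 4.0.16 (R 4.3.3; glmQLFit and glmQLFTest), with genotype as the only term, over all genes, with Benjamini-Hochberg adjustment. The SE was taken from the fold change and F, and the 95% interval from the t distribution with 8.75 degrees of freedom. Two-sided exact permutation tests used log2 CPM (prior count 2) and 20 assignments. FPKM used exon lengths of GENCODE release M21. DESeq2 1.42.0, limma-voom (limma 3.58.1), other scalings and filters, a term for mouse number and leaving out each mouse were alternatives. The fit was tested on simulated data.

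The 6 genes and 17 lists were chosen with earlier results of these data known. Named were the 6 genes, Prmt1, 5 cell markers (Lrat, Thy1, Msln, Myh11 and Alb), 3 collagens, the 2 genes with the smallest p of each list and the 3 genes most like each member (at least 5 CPM). Aspn, Kera, Epyc, Pcolce, Lrp1, Egfr, Slc9a3r1, Pdgfrb, Rgs5, Clec3b, S100a8, Col5a3, Col6a1 and Col6a2 were named after their values were seen. One item is not reported here. No set test was made.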

Additional observations from a re-analysis of the deposited data

How the results depend on the processing

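Over 17 alternatives each, none of which gave any member an adjusted p under 0.05 (lowest 0.232), Dcn, Bgn and Lum stayed negative in all. Of 102 member values 7 turned sign: Fmod (0.085), Prelp (0.15) and Ogn (0.052) without mouse 49, Prelp (0.12) and Ogn (0.25) without mouse 83, and Fmod (0.027) and Prelp (0.057) with mice over 80 alone; the cause was not tested. Leaving out each mouse gave log2 fold changes from -0.48 to 0.085 for Fmod, from -0.53 to 0.15 for Prelp and from -0.77 to 0.25 for Ogn. It gave 3 to 6 members with a negative fold change, an alternative added after seeing the data, and 0 to 2 with separate groups: Dcn and Lum without mouse 42, Bgn and Lum without mouse 88, and Fmod, higher in knockout livers, without mouse 49. Groups lie apart more easily when a mouse is left out. The share of all genes with separate groups was not counted in these fits, so no conclusion is drawn from the 0 to 2. The sum of the mesothelial markers without Slc9a3r1 was also added after seeing the data. With total counts as the only scaling the median of all genes shifted by -0.15, and Lum was at -1.32. Genes past adjusted p 0.05 numbered 0 in edgeR, 4 without a filter, 238 in DESeq2, 560 in limma-voom with library weights, 6 with a mouse number term, 3 at 0.10 and 0 to 13 leaving out each mouse (13 without mouse 49). Those at an unadjusted p under 0.05 numbered 1448, against 2977 with library weights, 2494 with mice over 80 alone and 775 (without mouse 82) to 2519 (without mouse 42) leaving out each mouse, with 865 without mouse 83. No paired analysis was possible because the genotypes share no mouse number. Ogn and Fmod had the lowest counts of the 6 genes, 24 to 172 per liver. In the main fit the SE was 0.60 for Ogn and 0.56 for Lum. It was 0.38 for both Fmod and Dcn, so it did not follow the counts alone.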
